A study of Homo sapiens and Homo sapiens
Mus musculus with 19 samples.

Results

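HOX genes are the homeobox genes of the 4 human clusters HOXA, HOXB, HOXC and HOXD, and their paralogue number follows their order along the chromosome. Rows of the human count table were taken as members where the symbol was HOX, then A, B, C or D, then a number. This gave 40 of 57820 rows and 39 symbols, with 11 rows in HOXA, 10 in HOXB, 10 in HOXC and 9 in HOXD. HOXC4 appeared in 2 rows, and the second (ENSG00000273266) held at most 20 counts per tumor. In GRCh37 the clusters spanned chr7:27132612-27239710 (HOXA), chr17:46605888-46806112 (HOXB), chr12:54332615-54449814 (HOXC) and chr2:176957449-177055635 (HOXD).

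The samples were SK-N-Be2c cells, an established MYCN-amplified human neuroblastoma (NB) line, either labelled wild-type (here Control) or with TWIST1 knocked out by CRISPR/Cas9 with 1 guide (sgTWIST1). Cultured cells gave 3 clones per genotype, and tumors grown in the left adrenal gland of athymic Swiss nude mice, which lack T cells, gave 4 per genotype. Tumors were collected at a set size and not at a set time. Both genotypes came from 1 cell line, and the clone behind each tumor is not given in the sources used here, so that p-values measure the spread between these clones or tumors. In bulk RNA, fewer cells of a type and less RNA per cell cannot be told apart. Per the labels, the RNA extraction kit, RNA input and sequencing lanes differed between cells and tumors and cannot be told apart from growth as a tumor.

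HOX proteins are transcription factors that set position along the body axis in the embryo. The genes at one end of a cluster (paralogue groups 1 to 3) act towards the head, those at the other end (groups 9 to 13) towards the tail and limbs. Their clusters are a known target of Polycomb repression and Trithorax activation, and their proteins bind DNA with TALE partners such as PBX and MEIS. Sympathetic precursors, from which NB arises, carry the HOX code of their level in the trunk. TWIST1 is a basic helix-loop-helix factor that binds E-boxes, with the letters CANNTG.

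The RefSeq promoter table (GRCh38.p14), with 1 start per gene, matched 20 of the 39 symbols. It gives HOXC4 and HOXC5 the same interval, so the 20 symbols have 19 different promoters. Over the 250 bases before the start, both strands counted, 16 of these 19 held CANNTG (84.2%), against 62.2% of all 27305 promoters in the table. The E-box CATCTG, a spelling within CANNTG, was in 2 of 19 (10.5%, HOXA6 and HOXB1) against 12.2% of all promoters. CATATG, also within CANNTG, was in 1 of 19 (5.26%, HOXA9) against 2.61%. The promoters of 2 members that differed between Control and sgTWIST1 are printed, HOXA6 with the largest fold change and HOXD11 as the leading HOXD gene, with CANNTG in capitals. The HOXA6 promoter lies at chr7:27147775-27148024 (minus strand) and that of HOXD11 at chr2:176107030-176107279 (plus strand). A match of these letters is a description of the sequence and not a binding site.
HOXA6: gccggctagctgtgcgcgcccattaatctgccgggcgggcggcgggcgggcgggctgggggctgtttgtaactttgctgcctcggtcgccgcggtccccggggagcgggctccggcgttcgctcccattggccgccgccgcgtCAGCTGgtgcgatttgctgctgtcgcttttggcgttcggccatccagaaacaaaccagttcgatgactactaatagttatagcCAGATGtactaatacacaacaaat
HOXD11: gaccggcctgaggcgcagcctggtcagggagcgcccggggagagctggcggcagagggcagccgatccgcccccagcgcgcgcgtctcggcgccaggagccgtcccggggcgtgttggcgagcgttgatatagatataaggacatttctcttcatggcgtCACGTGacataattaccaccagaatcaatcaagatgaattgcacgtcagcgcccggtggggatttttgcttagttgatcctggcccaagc

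Human counts per library ran from 21695694 to 45789687 in the clones and from 21426499 to 49990985 in the tumors. TWIST1 RNA fell without reaching 0. Its level in CPM (counts scaled to library size by TMM) was 51.8 ± 4.45 in Control and 22.8 ± 4.71 in sgTWIST1 cells (SD, n = 3 clones), and 70.3 ± 6.30 in Control and 29.4 ± 8.23 in sgTWIST1 tumors (SD, n = 4 tumors), a log2 fold change of 1.18 (adjusted p = 0.00203) and 1.27 (adjusted p = 0.00135). The sympathetic neuroblast marker HAND2 was present in every group, at mean levels of 119 to 348 CPM. Of 15 neuroblast markers, 9 passed in cells, all higher in Control, and 7 in tumors, 5 higher in Control and 2 in sgTWIST1. Of 10 mesenchymal markers, 5 passed in cells (3 higher in Control) and 2 in tumors, both higher in sgTWIST1. The part of these markers in the HOX values was not tested. Over all genes tested, 14.3% passed in cells and 9.48% in tumors. One other property separated the libraries: the summed CPM of 401 olfactory receptor genes, a list chosen after values were seen, was 11.2 to 44.8 in the clones but 2.07 to 152 in the tumors. Control tumor 2 was highest at 152 CPM, followed by sgTWIST1 tumors 3 and 2 at 115 and 105 CPM, and Control tumor 3 and sgTWIST1 tumor 4 were lowest at 2.07 and 3.57 CPM. The call rule, used throughout, was an adjusted p under 0.05 and an absolute log2 fold change (log2(FC)) of at least 1.

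Control cells and tumors expressed HOXC and HOXD genes and little of HOXA and HOXB. In sgTWIST1 samples HOXB was also low, but HOXA5 was at 1.63 ± 0.378 RPKM in cells and 2.48 ± 0.989 in tumors, and HOXA6 at 1.62 ± 0.620 and 1.76 ± 0.428 (SD, n = 3 clones or 4 tumors). Per exon length (RPKM, computed here), the highest group means were those of HOXC10, a posterior (group 9 to 13) gene, at 5.43 ± 0.898 in Control cells, 9.62 ± 0.503 in sgTWIST1 cells, 10.6 ± 1.00 in Control tumors and 10.3 ± 2.04 in sgTWIST1 tumors (SD, n = 3 clones or 4 tumors). In Control cells HOXC8 (4.90 ± 0.716 RPKM), HOXC4 (4.62 ± 0.705), HOXD8 (3.54 ± 0.595) and HOXC9 (3.34 ± 0.595) came next, and these neighbours lay within 2 SD of each other. HOXC5, HOXD9, HOXD3, HOXC6, HOXD13, HOXC11, HOXD10 and HOXC13 had Control cell means from 0.767 to 2.25 RPKM. HOXB genes had group means from 0.0719 to 0.272 RPKM in cells, and HOXC12 and HOXD12 were at 0.105 to 0.167 RPKM there. The mean RPKM of the olfactory receptor genes was 0.0120 to 0.0482 in the clones, below every HOXB group mean there. Each of the 10 HOXB genes was above the olfactory receptor level of its own library in 2 or 3 of the 3 clones of each genotype. In the tumors that level was 0.00214 to 0.166 RPKM.

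By cluster, HOXC held most of the summed HOX signal in Control cells, and its share was smaller in sgTWIST1 samples. Its level was not lower in sgTWIST1 cells, with 60.6 ± 2.17 CPM in Control (58.3 to 62.6) and 76.2 ± 3.73 CPM in sgTWIST1 clones (72.2 to 79.6), and the summed HOX level was 96.5 ± 4.27 against 135 ± 9.54 CPM (SD, n = 3 clones). In tumors the summed HOXC level was 87.7 ± 17.4 CPM in Control and 68.8 ± 11.6 CPM in sgTWIST1 (SD, n = 4 tumors), and the groups overlapped. HOXC made up 62.7% ± 0.751 of summed HOX CPM in Control cells, 56.5% ± 3.66 in sgTWIST1 cells, 60.2% ± 5.22 in Control tumors and 42.7% ± 6.0 in sgTWIST1 tumors (SD, n = 3 clones or 4 tumors). Control and sgTWIST1 shares of HOXC did not overlap in cells (62.0% to 63.5% against 54.0% to 60.7%) or in tumors (52.5% to 64.0% against 36.9% to 48.1%). The share of HOXD was 29.4% ± 2.17, 33.0% ± 2.24, 31.6% ± 3.89 and 42.4% ± 7.05 in the same order of groups. HOXA took 3.12% ± 0.445, 7.70% ± 2.14, 3.28% ± 3.86 and 9.79% ± 2.74. No test was made on these shares, since the members were chosen with results known.

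**Figure D1:**
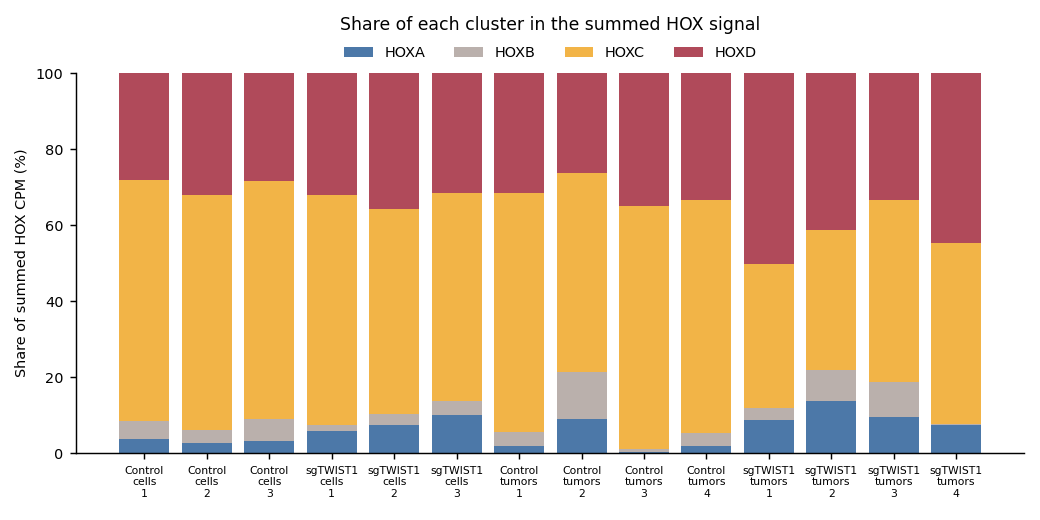
Stacked bars of the share (percent) of each cluster in the summed TMM-scaled CPM of all HOX genes, 1 bar per clone or tumor. The HOXC share is 62.0% to 63.5% in Control cells and 36.9% to 48.1% in sgTWIST1 tumors, and the HOXA share of Control tumor 2 is 8.94%.

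TWIST1 knockout in cultured cells was first compared, Control against sgTWIST1 clones. Of the 36 HOX rows tested, 6 passed, with 5 higher in sgTWIST1 (HOXA3, HOXA5, HOXA6, HOXC13 and HOXD11) and 1 higher in Control cells (HOXC11). That is 16.7% of the HOX rows, against 14.3% of all 21677 genes tested. By direction, 5.43% of all genes tested passed with a higher level in sgTWIST1 cells, and 8.89% with a higher level in Control cells. The median log2(FC), Control minus sgTWIST1, was -0.32 over HOX rows and 0.17 over all genes tested. HOXD leaned most evenly to one side, with all 9 genes at or below 0, a median of -0.85 and 6 genes with an unadjusted p under 0.05. For counts at an unadjusted p under 0.05, here and below, the share over all genes is not given. HOXA7, HOXA9, HOXB5 and HOXB7 were too low to be tested, and edgeR called 0 of the 8 tested HOXB genes, with 0 at an unadjusted p under 0.05 and 0 called by DESeq2. HOXB13 passed as higher in sgTWIST1 cells with the olfactory receptor level as a covariate (log2(FC) of -1.32, adjusted p = 0.0399, against -1.02 and 0.195 without it, and up to 0.696 under the other alternatives), and HOXB5 passed as higher in Control without Control clone 2.

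In tumors, 6 of 39 HOX rows tested passed, again with 5 higher in sgTWIST1 (HOXA5, HOXA6, HOXD10, HOXD11 and HOXD13) and 1 higher in Control tumors (HOXC5). That is 15.4% of the HOX rows, against 9.48% of all 23955 genes tested, of which 4.76% passed as higher in sgTWIST1 and 4.72% as higher in Control tumors. The median log2(FC) was -0.18 over HOX rows and 0.00 over all genes. HOXC leaned the other way from HOXD, with 8 of its 9 tested genes positive and a median of 0.53. HOXA5, HOXA6 and HOXD11 passed in both cells and tumors. These 2 comparisons share no samples, but the tumors were grown from the Control and sgTWIST1 cells of the same line. They are therefore not independent tests of the knockout.

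**Figure D2:**
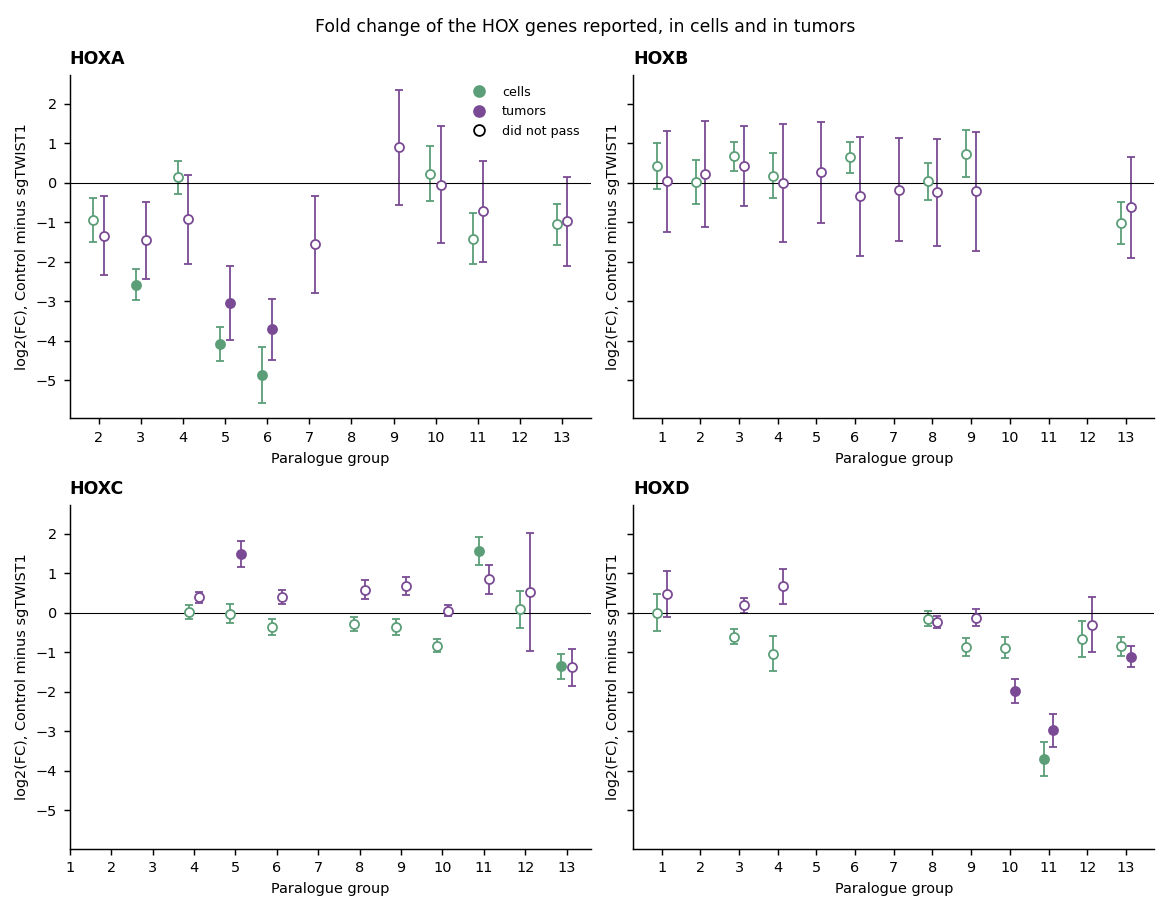
log2(FC), Control minus sgTWIST1, with its standard error (bars), for each HOX gene reported here against its paralogue group, in cells (green) and tumors (purple), 1 panel per cluster; filled points passed the call rule and open points did not. HOXA5, HOXA6 and HOXD11 are filled in both, at -4.08, -4.87 and -3.70 in cells and -3.04, -3.71 and -2.97 in tumors.

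Among the HOXA genes, the 3 that passed in cells were HOXA3, HOXA5 and HOXA6, all on the minus strand of chromosome 7. HOXA4, which lies between HOXA3 and HOXA5 in number, did not pass. In the annotation, the span of HOXA3 contains those of HOXA4, HOXA5 and HOXA6. Of the HOXA3 exon length, 6.73% (290 bases) lies opposite the antisense RNA HOXA-AS3 and 10.6% (455 bases) opposite HOXA-AS2. How far HOXA3 counts are separate from those of these genes was not tested. HOXA3 (ENSG00000105997, chr7:27145803-27192202), an anterior gene active in pharyngeal arch and hindbrain patterning, had 0.337, 0.407 and 0.168 CPM in the Control clones and 1.58, 2.00 and 2.03 CPM in the sgTWIST1 clones. The groups did not overlap, with a log2(FC) of -2.58 ± 0.39 (SE, adjusted p = 0.00223). With all 4 groups in 1 fit the HOXA3 call was lost (adjusted p = 0.0921). In tumors its level was 0.638, 3.69, 0.0477 and 0.408 CPM in Control and 2.92, 5.51, 2.98 and 1.80 CPM in sgTWIST1. Control tumor 2 alone overlapped the sgTWIST1 tumors, and the log2(FC) was -1.46 ± 0.98 (adjusted p = 0.382). Without Control tumor 2 it was -3.17 (adjusted p = 0.0165), and with the olfactory receptor level as a covariate -2.01 (adjusted p = 0.0240).

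HOXA5 (ENSG00000106004, chr7:27180671-27183300), a central gene (groups 4 to 8) needed for lung and cervicothoracic skeletal development, was near the limit of detection in Control cells. Its counts were 4, 9 and 4 in the Control clones and 111, 119 and 85 in the sgTWIST1 clones. In CPM, these were 0.104, 0.244 and 0.134 against 2.25, 2.62 and 3.52. The groups lay far apart, with a log2(FC) of -4.08 ± 0.43 (adjusted p = 0.000332), or 16.9-fold. In tumors the level was 0.116, 1.64, 0.0477 and 0.288 CPM in Control and 3.41, 6.82, 3.35 and 3.49 CPM in sgTWIST1. These groups did not overlap either, with a log2(FC) of -3.04 ± 0.94 (adjusted p = 0.0439). The tumor call of HOXA5 was lost when any of the 7 tumors other than Control tumor 2 was left out (adjusted p up to 0.127). Without Control tumor 2, its log2(FC) was -4.78 (adjusted p = 0.000906).

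HOXA6 (ENSG00000106006, chr7:27185015-27190222), the central gene next to HOXA5, had the largest fold change of the HOX rows in both comparisons. Its counts were 0, 4 and 3 in the Control clones against 72, 82 and 72 in the sgTWIST1 clones. Only 1 of the 3 Control clones exceeded 3 counts, so its fold there depends on the low counts. The log2(FC) was -4.87 ± 0.70 (adjusted p = 0.00161). In tumors it had 1, 11, 4 and 5 counts in Control (0.0290, 0.451, 0.0954 and 0.120 CPM) and 106, 77, 33 and 95 counts in sgTWIST1 (2.18, 2.72, 1.51 and 2.63 CPM). Every sgTWIST1 tumor was above every Control tumor, with a log2(FC) of -3.71 ± 0.77 (adjusted p = 0.00645). Of its exon length, 39.3% (505 bases) lies opposite the antisense RNA HOXA-AS3, and the strand of counting is not given in the sources used here, so reads of this pair cannot be told apart there. The level of HOXA-AS3 was 0.955 ± 0.0803 CPM in Control cells against 3.07 ± 0.805 CPM in sgTWIST1 cells (SD, n = 3 clones), with a log2(FC) of -1.67 (adjusted p = 0.00591), and -1.62 (adjusted p = 0.238) in tumors.

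The other HOXA genes reported here were low in cells and reached higher means in tumors. HOXA2, HOXA4, HOXA7, HOXA9, HOXA10, HOXA11 and HOXA13 had group means from 0.0558 to 0.279 RPKM in cells, and none passed in either comparison. In tumors their group means ran from 0.092 (HOXA13, Control) to 0.655 RPKM (HOXA4, sgTWIST1). HOXA7 passed as higher in sgTWIST1 tumors than in sgTWIST1 cells with DESeq2 and with the olfactory receptor covariate, but not in the main fit. It also passed there with only the 2 groups compared, without Control tumor 2 and without the 3 tumors of highest olfactory receptor level. HOXA7, whose exons lie opposite HOXA-AS3 over 62.5% of their length, passed in tumors only without Control tumor 2 (log2(FC) of -4.40, adjusted p = 0.00886). HOXA2 passed in cells and in tumors with the olfactory receptor covariate, and HOXA13 in cells. HOXA11 passed as higher in sgTWIST1 cells without sgTWIST1 clone 1 (adjusted p = 0.0349).

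**Figure D3:**
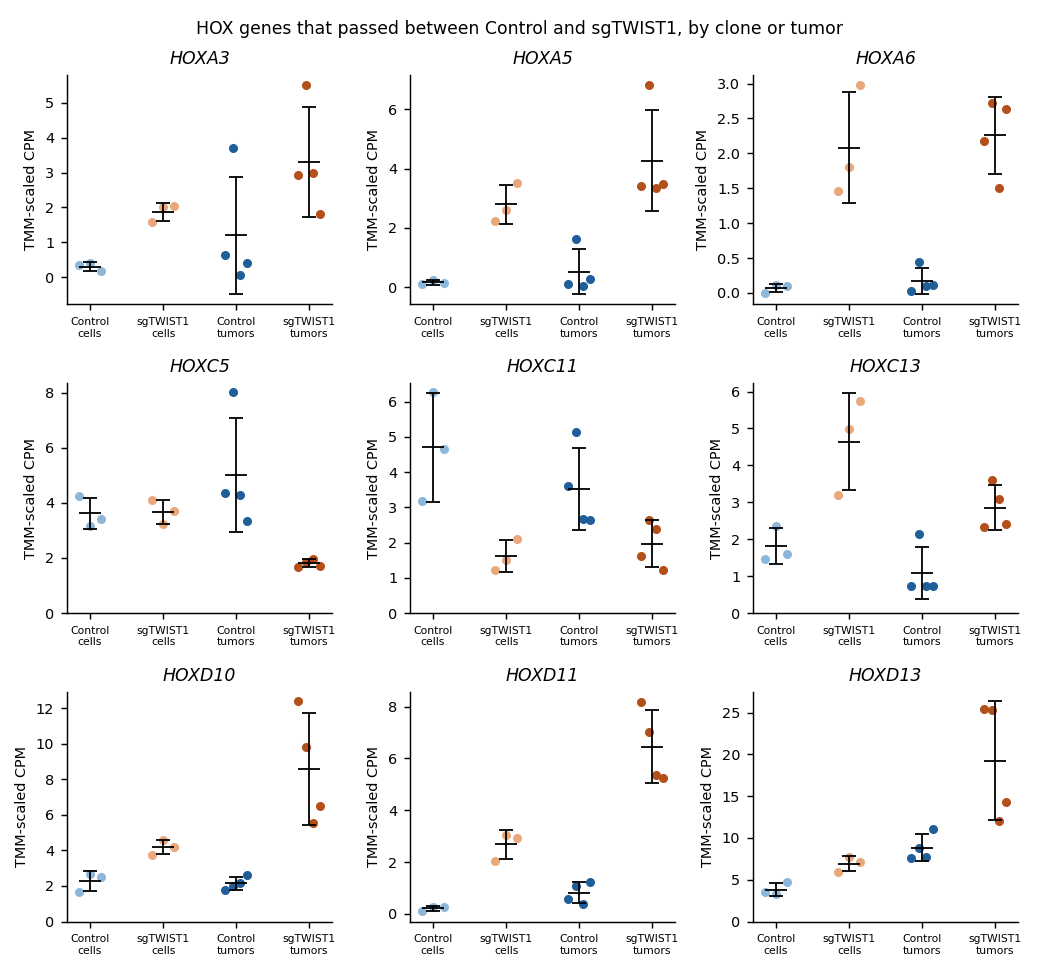
TMM-scaled CPM of the 9 HOX genes that passed between Control and sgTWIST1 in cells or tumors, 1 panel per gene; points are clones or tumors, and black marks give the mean and SD of each group (n = 3 clones or 4 tumors). HOXD11 lies at 0.104 to 0.268 CPM in Control cells and 5.23 to 8.18 CPM in sgTWIST1 tumors, and HOXC5 is lowest in sgTWIST1 tumors.

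In the HOXC cluster, the 3 genes that passed went in different directions. HOXC5 (ENSG00000172789, chr12:54426834-54429145), a central gene, did not differ between the cell groups beyond their spread, at 4.26, 3.18 and 3.42 CPM in Control and 4.10, 3.22 and 3.72 CPM in sgTWIST1 clones (log2(FC) of -0.02 ± 0.24, adjusted p = 0.957). In tumors it had 4.35, 8.04, 4.29 and 3.36 CPM in Control and 1.66, 1.87, 1.97 and 1.72 CPM in sgTWIST1. Each sgTWIST1 tumor was below each Control tumor, and HOXC5 was 2.81-fold lower in sgTWIST1 (log2(FC) of 1.49 ± 0.33, adjusted p = 0.00929). This call was kept under all 18 alternatives run for the tumor comparison.

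HOXC11 (ENSG00000123388, chr12:54366910-54371427), a posterior gene active in hindlimb and kidney development, was the only HOX gene higher in Control cells, by the call rule. It had 3.17, 6.27 and 4.66 CPM in Control and 1.22, 1.50 and 2.11 CPM in sgTWIST1 clones. The groups did not overlap, with a log2(FC) of 1.56 ± 0.35 (adjusted p = 0.0124). The call was lost without sgTWIST1 clone 1 or 2 (adjusted p up to 0.0605). In tumors the levels overlapped, at 3.60, 5.13, 2.67 and 2.64 CPM in Control and 1.62, 2.65, 2.39 and 1.22 CPM in sgTWIST1 (log2(FC) of 0.85 ± 0.37, adjusted p = 0.149).

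HOXC13 (ENSG00000123364, chr12:54332615-54340328), the last gene of the cluster by paralogue number and a regulator of hair and nail keratins, went the opposite way to HOXC11. Its level was 1.45, 2.36 and 1.61 CPM in Control and 3.20, 4.98 and 5.75 CPM in sgTWIST1 clones, without overlap (log2(FC) of -1.35 ± 0.32, adjusted p = 0.0174). Leaving out Control clone 3, sgTWIST1 clone 2 or sgTWIST1 clone 3 ended the call (adjusted p up to 0.0690). The tumor values were 0.725, 2.13, 0.739 and 0.743 in the Control group and 2.32, 3.60, 3.08 and 2.41 in the sgTWIST1 group. These groups did not overlap, yet HOXC13 missed the threshold (log2(FC) of -1.38 ± 0.47, adjusted p = 0.0635). Without Control tumor 2, in which it was 2.13 CPM, the log2(FC) was -1.94 (adjusted p = 0.00346), and with scaling factors from all genes tested the adjusted p was 0.0349. HOXC13 also passed in tumors with DESeq2, with the study's filter, with all 4 groups in 1 fit and with the replicate block. So it did with the olfactory receptor covariate and without the 3 tumors of highest olfactory receptor level. Under the alternatives not named here it did not pass in tumors.

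The more highly expressed HOXC genes changed less. HOXC10 had 10.6, 13.3 and 14.8 CPM in Control and 23.8, 21.5 and 23.2 CPM in sgTWIST1 clones, a difference past the p threshold but under the fold threshold (log2(FC) of -0.83 ± 0.17, adjusted p = 0.00823). In tumors its levels overlapped, at 27.7, 26.7, 23.6 and 22.8 CPM in Control and 20.5, 26.2, 30.5 and 20.6 CPM in sgTWIST1 (log2(FC) of 0.06 ± 0.15, adjusted p = 0.892). HOXC4, HOXC6, HOXC8 and HOXC9 had a log2(FC) between -0.36 and 0.02 in cells and between 0.40 and 0.69 in tumors, and none passed in either.

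In the HOXD cluster, the genes that passed were posterior ones and were higher in sgTWIST1. HOXD11 (ENSG00000128713, chr2:176968944-176974482), active in forearm, limb and kidney development, had 4, 9 and 8 counts in Control and 101, 138 and 71 counts in sgTWIST1 clones. In CPM these were 0.104, 0.244 and 0.268 against 2.05, 3.04 and 2.94, a 13-fold difference (log2(FC) of -3.70 ± 0.43, adjusted p = 0.000564). The size of this fold depends on the low counts of the Control clones. Control tumors had 0.580, 1.07, 0.382 and 1.22 CPM of HOXD11, and sgTWIST1 tumors 8.18, 7.03, 5.37 and 5.23 CPM. The groups were apart in cells and in tumors, and the tumor difference was 7.85-fold (log2(FC) of -2.97 ± 0.42, adjusted p = 0.000792). The calls of HOXD11 were kept under all 17 alternatives in cells and all 18 in tumors.

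HOXD10 (ENSG00000128710, chr2:176973518-176984665), a neighbour with roles in hindlimb motor neurons, shares 452 exon bases with HOXD11 on the same strand, 18.2% of its exon length and 21.4% of that of HOXD11. Reads in that stretch were split between both genes by estimation, so the values of each are uncertain to that extent. HOXD10 had 1.64, 2.69 and 2.51 CPM in Control and 3.77, 4.58 and 4.22 CPM in sgTWIST1 clones. It did not overlap there but stayed under the fold threshold (log2(FC) of -0.88 ± 0.27, adjusted p = 0.0475). Without Control clone 2, HOXD10 passed in cells. Across tumors its level was 1.80, 2.01, 2.17 and 2.64 CPM in Control and 12.4, 9.82, 5.55 and 6.48 CPM in sgTWIST1. The sgTWIST1 tumors were 3.92-fold higher (log2(FC) of -1.97 ± 0.30, adjusted p = 0.00122).

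HOXD13 (ENSG00000128714, chr2:176957449-176960672), the last gene of its cluster and a digit patterning gene, was higher in sgTWIST1 in both comparisons by value. In the main fits it passed the fold threshold in tumors only, but without Control clone 3 HOXD13 passed in cells too. It had 3.50, 3.29 and 4.69 CPM in Control and 5.90, 7.67 and 7.16 CPM in sgTWIST1 clones (log2(FC) of -0.85 ± 0.24, adjusted p = 0.0310, under the fold threshold). In tumors it had 7.66, 8.78, 7.73 and 11.1 CPM in Control and 25.4, 25.3, 12 and 14.3 CPM in sgTWIST1. No sgTWIST1 tumor reached down to a Control tumor, with a log2(FC) of -1.11 ± 0.27 (adjusted p = 0.0140), and 3 of the 8 tumors, when left out, ended the call (adjusted p up to 0.0534, or a log2(FC) of -0.95). sgTWIST1 tumors 1 and 2, the highest for HOXD10, HOXD11 and HOXD13, also had the highest mouse adrenal cortex signal (Star, Cyp11a1 and Cyp11b1), 866 and 528 CPM of mouse counts against 5.19 to 20.1 in the other 6 tumors. The part of that difference in these levels was not tested.

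The other HOXD genes gave smaller values. HOXD3 and HOXD9 passed the p threshold in cells under the fold threshold, with a log2(FC) of -0.60 (adjusted p = 0.0380) and -0.86 (adjusted p = 0.0215). In tumors they had 0.19 and -0.12, and neither passed. HOXD9 passed in cells without Control clone 2. HOXD8 had -0.15 in cells and -0.22 in tumors, and HOXD4 had -1.03 (adjusted p = 0.129) and 0.67 (adjusted p = 0.378). HOXD4 passed as higher in sgTWIST1 cells with batch 1 alone and with batches as separate columns. HOXD1 and HOXD12 had 0.00 and -0.66 in cells and 0.48 and -0.30 in tumors, without passing.

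HOXB stayed low in all groups and varied between tumors of one genotype. Its summed level was 2.11 to 5.80 CPM in the clones, 5.13, 26.3, 0.787 and 4.27 CPM in Control tumors 1 to 4, and 4.77, 16.5, 15.8 and 0.277 CPM in sgTWIST1 tumors 1 to 4. The 3 tumors with the highest HOXB level were the 3 with the highest olfactory receptor level, and the 2 lowest were also shared. HOXC varied less, at 58.3 to 112 CPM in all libraries. It too was highest in Control tumor 2, at 112 CPM against 72.2 to 87.8 CPM in the other Control tumors. In sgTWIST1 tumors 1 to 4, HOXC had 59.0, 74.2, 82.6 and 59.5 CPM. In tumors edgeR called 0 of the 10 HOXB genes, with 0 at an unadjusted p under 0.05 and 0 called by DESeq2, where their log2(FC) lay between -0.63 and 0.42 with standard errors from 1.01 to 1.50. A log2(FC) of 1, the fold threshold, lies within such an error, so a HOXB difference of that size was not detectable in tumors. Without the 3 tumors of highest olfactory receptor level, 10 HOX rows passed in tumors, 8 higher in sgTWIST1 (with HOXA3, HOXA7 and HOXC13 added) and 2 higher in Control (HOXC11 added).

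Growth as a tumor was then compared with culture within each genotype. In the Control genotype, 4 of 40 HOX rows passed (10.0%, against 8.53% of all 28183 genes tested), all higher in tumors. Over all genes, 5.58% passed as higher and 2.95% as lower in tumors. These were HOXC9 (log2(FC), tumors minus cells, of 1.05 ± 0.23, adjusted p = 0.00604), HOXD4 (1.85 ± 0.49, adjusted p = 0.0172), HOXD11 (1.97 ± 0.47, adjusted p = 0.00919) and HOXD13 (1.21 ± 0.27, adjusted p = 0.00713). HOXC9, a thoracic level gene, fell under the fold threshold with scaling factors from all genes tested (0.91), without Control clone 3 (0.94), without Control tumor 2 (0.79) and without the 3 tumors of highest olfactory receptor level (0.79). HOXD4 lost its call without Control clone 3 (1.59, adjusted p = 0.0943), and HOXD11 when the other 2 groups were left out of the fit (adjusted p = 0.0783). HOXC10 had 0.97 ± 0.16 (adjusted p = 0.00102), just under that threshold.

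In the sgTWIST1 genotype, 4 of 40 HOX rows passed (10.0%, against 11.3% of all genes, of which 9.03% passed as higher and 2.25% as lower in tumors). HOXD10 (1.03 ± 0.30, adjusted p = 0.0230), HOXD11 (1.27 ± 0.41, adjusted p = 0.0374) and HOXD13 (1.48 ± 0.27, adjusted p = 0.00154) were higher in tumors, and HOXC5 (-1.03 ± 0.29, adjusted p = 0.0207) was lower. With the replicate number as a block, 2 of these passed (HOXD10 and HOXD13). With scaling factors from all genes tested, 4 passed, of which 1 was higher in tumors (HOXD13) and 3 were lower (HOXC5, HOXC8 and HOXC13). The number called went down to 1 without sgTWIST1 clone 1, without sgTWIST1 clone 3 or without sgTWIST1 tumor 1, and to 2 without sgTWIST1 clone 2 or sgTWIST1 tumor 2. The 2 tumor against cell comparisons have no samples in common, but each shares its samples with the comparisons between genotypes.

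The difference of differences (Control minus sgTWIST1 in tumors, less the same in cells) tests whether knockout differed between tumors and cells. None of the 40 HOX rows passed in edgeR, against 2.89% of all genes (0.901% with a positive and 1.99% with a negative value). An unadjusted p under 0.05 was found for 9, of which 5 were in HOXC and 4 in HOXD, and the share of all genes at that level is not given. HOXC10 had the lowest adjusted p (0.0473) with a value of 0.87 ± 0.23, under the fold threshold, and HOXC5 came next (1.49 ± 0.41, adjusted p = 0.0628). DESeq2 called 2 (HOXC5 and HOXC9), and edgeR with scaling factors from all genes tested called 4 (HOXC5, HOXC6, HOXC8 and HOXC10), all with a higher value in tumors. HOXA3, HOXA5 and HOXA6 had values of 1.10 ± 1.24, 1.00 ± 1.17 and 1.10 ± 1.14, so their errors leave room for a difference of either sign. HOXD10 had -1.11 ± 0.42 (adjusted p = 0.196).

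Of 9 DNA-binding partners of the TALE family, 2 passed in cells and 2 in tumors, each time 1 higher in Control and 1 higher in sgTWIST1. The share of all genes that passed was 14.3% in cells and 9.48% in tumors. MEIS2 passed in both. MEIS2 was higher in Control cells, at 88.6 ± 6.34 against 26.7 ± 4.22 CPM (SD, n = 3 clones, log2(FC) of 1.73, adjusted p = 0.00013). It was also higher in Control tumors, at 94.4 ± 12.6 against 46.5 ± 4.18 CPM (SD, n = 4 tumors, log2(FC) of 1.04, adjusted p = 0.000262). Between tumors and cells, 3 TALE genes passed in the Control genotype, 2 of them higher in tumors, and 1 in the sgTWIST1 genotype, lower in tumors. The share of all genes was 8.53% in the Control and 11.3% in the sgTWIST1 genotype. PBX3 was higher in Control tumors (log2(FC) of 1.22), and MEIS3 was lower in tumors of both genotypes (-2.17 and -1.98).

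Of the ParaHox and cluster-flanking homeobox genes, 6 of 8 were tested and 1 passed in each genotype comparison. Among all genes, 14.3% passed in cells and 9.48% in tumors. CDX1, a ParaHox gene known to regulate HOX genes in the embryo, had 13, 26 and 17 counts in Control and 3, 1 and 2 counts in sgTWIST1 clones (log2(FC) of 3.30, adjusted p = 0.00530). In tumors it had 27, 54, 50 and 45 counts in Control and 5, 11, 0 and 2 counts in sgTWIST1 (log2(FC) of 3.25, adjusted p = 0.0347). EVX2, next to HOXD13, was higher in sgTWIST1 tumors than in sgTWIST1 cells (log2(FC) of 2.77, adjusted p = 0.0191).

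Of 19 Polycomb genes tested, 2 passed in cells and 1 in tumors, against 14.3% and 9.48% of all genes. PHC1, a subunit of Polycomb repressive complex PRC1, was higher in Control, at 44.9 ± 1.53 against 19.0 ± 2.49 CPM in cells (SD, n = 3 clones, log2(FC) of 1.24, adjusted p = 0.000469) and 56.8 ± 5.10 against 25.2 ± 3.76 CPM in tumors (SD, n = 4 tumors, 1.20, adjusted p = 0.000137). RING1, also of PRC1, was higher in sgTWIST1 cells (log2(FC) of -1.13, adjusted p = 0.00756). The median log2(FC) of the list was -0.22 in cells and -0.05 in tumors, beside 0.17 and 0.00 over all genes. Of 13 Trithorax genes tested, edgeR called 0 in cells (2 at an unadjusted p under 0.05) and 0 in tumors (5 at that level), and their median log2(FC) was -0.05 and 0.27. Between tumors and cells, 8.53% of all genes passed in the Control and 11.3% in the sgTWIST1 genotype. Of the Trithorax genes, 3 passed in the Control and 4 in the sgTWIST1 genotype, all higher in tumors. These were the histone methyltransferases KMT2A (log2(FC) of 1.18 in Control and 1.10 in sgTWIST1) and KMT2D (1.47 and 1.44), the histone demethylase KDM6B (1.62 and 1.94) and, in sgTWIST1, the methyltransferase KMT2C (1.03). Of the Polycomb genes, PCGF2 was higher in tumors of both genotypes (1.22 and 1.15), and in sgTWIST1 RNF2 was higher (1.48) and RING1 lower (-1.59).

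Of the 22 other RNAs of the clusters, 11 were tested in cells and 10 in tumors, and HOXA-AS3 in cells was the one that passed. HAGLR, a long RNA beside HOXD1 (HOXD-AS1 in the file), had a log2(FC) of -0.71 (adjusted p = 0.00669) in cells and -1.0 (adjusted p = 0.00125) in tumors, just under the fold threshold. HOTAIR, a long RNA between HOXC11 and HOXC12, had 0.20 (adjusted p = 0.557) and 0.08 (adjusted p = 0.910). Over all genes tested, 14.3% passed in cells and 9.48% in tumors. Genes within 1 megabase of a cluster gave no common picture. In cells, 1 of 12 tested passed around HOXA, 3 of 41 around HOXB, 8 of 51 around HOXC and 0 of 6 around HOXD (2 at an unadjusted p under 0.05). In tumors, 0 of 13 (3 at an unadjusted p under 0.05), 3 of 45, 3 of 55 and 1 of 8 passed, the last being LNPK, a gene next to EVX2, at -1.11 (adjusted p = 0.000163).

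Tumors also hold mouse cells, and reads that matched both organisms were kept in the human counts. The mouse table held 39 Hox genes. Their summed counts were 330, 70.2, 842 and 548 in Control tumors 1 to 4 and 302, 205, 476 and 233 in sgTWIST1 tumors 1 to 4. Mouse Hoxd10, Hoxd11 and Hoxd13 had at most 3, 4 and 3 counts per tumor, while human HOXD13 had 214 to 1237. Mouse Hoxa6 had 1 to 10 counts, and mouse Hoxa5 had 17, 4, 38 and 45 counts in Control and 19, 17, 11 and 15 counts in sgTWIST1. Control tumor 2 had the smallest mouse library (577518 counts). Scaled to the mouse library, Hoxa5 was 4.45, 6.93, 5.24 and 8.50 CPM in Control tumors 1 to 4. The share of reads from shared sequence within the human HOX counts was not tested.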

How the data were processed

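RNA of cultured clones and of orthotopic tumors was sequenced from ribosomal RNA-depleted libraries. The authors aligned reads with STAR 2.5.2b to human and mouse genomes together (hg19 and mm10) and deposited RSEM 1.3.0 estimated counts per gene, without normalization, in a human and a mouse table; reads matching both organisms were kept in the human table and discarded from the mouse one. The GENCODE version and the strand of counting are not given in the sources used here. Deposited counts were rounded to whole numbers, and the batches of a clone were summed (11 columns into 6 clones, 1 batch for sgTWIST1 clone 3).

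After filterByExpr, edgeR 4.0.16 (R 4.3.3) was used for quasi-likelihood tests, and p-values of every gene tested were adjusted by Benjamini-Hochberg. Cells and tumors were fitted apart, and tumors against cells and the difference of differences in 1 fit of 4 groups; DESeq2 1.42.0 was an alternative. TMM factors came from 10889 expressed protein-coding genes. This choice was made after the HOX calls with factors from all genes tested had been seen, and both are given where calls differ. Factors from all genes moved the median log2(FC) over all genes by -0.12 in cells, 0.03 in tumors, -0.14 and -0.38 in Control and sgTWIST1 tumors against cells, and 0.23 in the difference of differences. RPKM was computed here from CPM and exon length (GRCh37, GENCODE v44lift37), and 55538 of 57820 gene IDs and 39 of 40 HOX rows matched. A count of 3 corresponded to 0.0600 to 0.140 CPM, which covers counting error only.

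HOX rows, lists and the rule for named genes (values per sample for HOX genes called between Control and sgTWIST1, the others by range; called genes of each list) were chosen with earlier results of these data known. The olfactory receptor list and covariate were chosen after values were seen. Replicates of a group differed by more than sampling noise (chi-square per degree of freedom 18.8 to 207). Replicate numbers come from the labels. Deviations of same-numbered sgTWIST1 cells and sgTWIST1 tumors had correlations of 0.191, 0.109 and 0.284 in the 3 pairs. Differently numbered pairs of these groups ran from -0.394 to 0.449, so the numbers do not show a link between clone and tumor. In the other comparisons, same-numbered pairs were not all over 0.1. Scripts were tested on simulated data. Figures used matplotlib 3.10.9 with Python 3.11.15. Single genes that are withheld are not reported here or drawn in the plots of single genes.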

Additional observations from a re-analysis of the deposited data

Results flagged for a closer look

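Of 84 values tested for a sample far from the others of its group, 16 were flagged, and chance gives about 1 in 20. All 16 were values of HOX genes with 1 tumor far from the other 3 of its group. In 13 of the 16 it was Control tumor 2, the tumor with the highest olfactory receptor level (152 CPM), that stood above the others. Its levels were 3.69 CPM for HOXA3, 1.64 for HOXA5, 1.40 for HOXA7, 2.63 for HOXA9, 2.30 for HOXA10 and 1.48 for HOXA13. In HOXB it had 2.83 CPM for HOXB2, 2.83 for HOXB4, 1.60 for HOXB7, 1.64 for HOXB8 and 2.91 for HOXB9. In HOXC it had 3.45 CPM for HOXC12 and 2.13 for HOXC13. The other 3 Control tumors were at 0.638 CPM or less for each of these genes but HOXC13, for which they had 0.725 to 0.743 CPM. These values share a library and are not independent of each other.

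The remaining 3 were in sgTWIST1 tumors. HOXA5 was 6.82 CPM in sgTWIST1 tumor 2 against 3.35 to 3.49 in the other 3. HOXA11 was 2.05 CPM in the same tumor against 0.138 to 0.413. HOXD1, the most anterior HOXD gene, was 0.964 CPM in sgTWIST1 tumor 3 against 0.459 to 0.526. sgTWIST1 tumors 2 and 3 had olfactory receptor levels of 105 and 115 CPM, against 35.6 and 3.57 CPM in the other sgTWIST1 tumors. What part this level has in the HOX values was not tested beyond the fits with it as a covariate or without the 3 tumors.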

How the results depend on the processing

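The number of HOX genes called stayed within 1.5 times the reported one under all 17 alternatives in cells (4 to 9, reported 6) and all 25 for Control tumors against cells (3 to 6, reported 4). In tumors (reported 6) it moved under 1 of 18, to 10 without the 3 tumors of highest olfactory receptor level. For sgTWIST1 tumors against cells (reported 4) it was 7 with the olfactory receptor covariate. For the difference of differences (reported 0) it was 2 with DESeq2, 4 with scaling factors from all genes tested, 1 with the study's filter, 1 with batch 1 alone for the cells, 2 with the olfactory receptor covariate and 1 without the 3 tumors. The cause of these moves was not tested. The replicate block gave 6 HOX genes in cells, 7 in tumors, 6 for Control tumors against cells, 2 for sgTWIST1 tumors against cells and 0 for the difference of differences. Leaving out 1 clone or tumor gave 4 to 9, 4 to 9, 3 to 6, 1 to 5 and 0 to 1 HOX genes in the same order, and 2308 to 3279, 1856 to 2623, 1727 to 2603, 2006 to 3764 and 539 to 1034 genes in all. Over all genes, the study's filter, which tests fewer genes, called 1583 in cells (reported 3103), 1285 for Control tumors against cells (reported 2403) and 1379 for sgTWIST1 tumors against cells (reported 3180). DESeq2 called 1315 genes in the difference of differences (reported 815), and the olfactory receptor covariate 3878 for Control tumors against cells. One gene value changed sign on passing: HOXB13, sgTWIST1 tumors minus cells, was 0.12 and became -1.13 (adjusted p = 0.0358) with that covariate. Depth limits values near the floor of 3 counts (0.0600 to 0.140 CPM), as for HOXA6 in Control cells. Among tumors, HOXB was highest in the shallowest libraries: sgTWIST1 tumor 3, Control tumor 2 and sgTWIST1 tumor 2. At 21426499, 23099739 and 27764639 human counts, these had 15.8, 26.3 and 16.5 CPM. Control tumor 3, the deepest library at 49990985 counts, had 0.787 CPM. sgTWIST1 tumors 1 and 4, at 47244576 and 42961751 counts, had 4.77 and 0.277 CPM. The part of depth in the HOXB level was not tested.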
